A study of Mus musculus with 6 samples.

Results

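Retinal ganglion cells (RGCs) are usually recognised by a small set of genes, and 10 of these were followed here across 6 retinas of mice with and without repeated elevation of intraocular pressure (IOP). The measurement was ChIP-seq of H3K27ac, the acetylated form of lysine 27 on histone H3 that is found at active promoters and enhancers. The genes were listed by name, not by their values: Rbpms, Pou4f1, Pou4f2, Pou4f3, Isl2, Sncg, Thy1, Slc17a6, Nefl and Nefh. They are 10 of the 21911 protein-coding genes of the GENCODE M21 annotation on which the peaks were placed. A gene was called marked in a retina when a peak overlapped a window of 2.5 kb on either side of any of its transcription start sites (TSSs), and its locus was the gene body with 20 kb on either side. Of the 10 promoters, only that of Nefh was marked in all 6 retinas, that of Rbpms in 2, that of Thy1 in 1, and those of the other 7 in none. Of all 21911 coding genes, 39.5% were marked in all 6 retinas and 42.4% in none.

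The samples were 6 bulk retinas of wild-type C57BL/6J mice, 3 months old at the first elevation. In the 4xIOP group the pressure of 1 eye had been raised to 30 mmHg for 1 h on 4 occasions, and in the control group the retina was the untreated contralateral eye of such an animal. Tissue was taken 2 days after the fourth elevation. Each group held 3 retinas, and 1 peak list was given for each retina. The treatment text attached to the samples also speaks in general of dasatinib and of a vehicle, and no label says whether these 6 animals had received either.

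RGCs are the output neurons of the retina: they gather signals from bipolar and amacrine cells and send their axons through the optic nerve, and they are the cells lost in glaucoma. They form a small share of retinal cells, most of which are rods. Pou4f1, Pou4f2 and Pou4f3 (Brn3a, Brn3b and Brn3c) encode POU-domain transcription factors and Isl2 a LIM-homeodomain factor of RGC differentiation and subtypes. Rbpms encodes an RNA-binding protein found in nearly all RGCs, Sncg gamma-synuclein, Thy1 a surface glycoprotein, Slc17a6 the vesicular glutamate transporter VGLUT2, and Nefl and Nefh the light and heavy neurofilament subunits of large axons. In a bulk retina, fewer cells of a type and less of a mark per cell cannot be told apart.

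Before the results, the lists themselves need a word. In 4 of the 6 lists (control replicates 1 and 2, 4xIOP replicates 1 and 2) the name of the deposited list carries the other group. The groups below are those of the sample labels, and only control replicate 3 and 4xIOP replicate 3 have a label and a name that match, so every direction between the groups rests on the labels. The lists held 16195 to 36509 peaks, the most in control replicate 3, which also marked 56.9% of coding genes against 44.6% to 48.6% in the other 5. Fragments over a peak summit were recovered from the deposited values, and enrichment below means the fragments at the summit divided by the genome background of that list, which was 2.01 to 3.38 fragments. Where the local background was no higher than this, the fewest fragments called as a peak were 9 to 12, or 3.55 to 4.97 times the background, so a promoter with no peak can still carry signal below that level. The tissue markers bore out the label of the tissue: 5 of 6 rod genes were marked in all 6 lists, the sixth in 5, and 11 of 12 genes of other tissues in none, the last lying under a peak shared with a neighbouring gene.

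The stretches of sequence behind the main contrasts are given first. The RefSeq promoter table for build GRCm38.p6 held 5 of the 10 genes (Pou4f1, Pou4f2, Isl2, Sncg and Slc17a6) and not Rbpms, Pou4f3, Thy1, Nefl and Nefh. None of the former 5 was marked in any list, and 4 are printed to show how different unmarked promoters were in base composition. Each runs 5′ to 3′ along the gene up to the base before the transcript, and capitals mark every GGGCGG (the GC box, on either strand, so also as its reverse complement, and overlapping copies run together) and every CAGCTG (an E-box, its own reverse complement).
Pou4f1, chr14:104468000-104468249, minus strand: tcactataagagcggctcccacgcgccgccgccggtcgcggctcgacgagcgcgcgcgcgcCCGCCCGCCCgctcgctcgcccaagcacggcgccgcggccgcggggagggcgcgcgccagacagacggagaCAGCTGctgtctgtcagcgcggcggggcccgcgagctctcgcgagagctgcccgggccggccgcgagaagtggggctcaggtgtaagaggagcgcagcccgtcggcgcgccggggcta
Pou4f2, chr8:78436648-78436897, minus strand: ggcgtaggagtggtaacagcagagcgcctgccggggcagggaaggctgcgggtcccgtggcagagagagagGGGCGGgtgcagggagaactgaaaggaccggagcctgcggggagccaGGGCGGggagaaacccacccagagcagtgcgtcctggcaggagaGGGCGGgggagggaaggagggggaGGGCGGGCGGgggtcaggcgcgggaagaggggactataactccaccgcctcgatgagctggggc
Isl2, chr9:55540899-55541147, plus strand: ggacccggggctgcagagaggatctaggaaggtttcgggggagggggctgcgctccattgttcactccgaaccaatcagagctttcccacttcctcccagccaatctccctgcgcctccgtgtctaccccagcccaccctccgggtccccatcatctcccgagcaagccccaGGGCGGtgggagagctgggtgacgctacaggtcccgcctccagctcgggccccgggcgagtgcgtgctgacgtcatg
Slc17a6, chr7:51621580-51621829, plus strand: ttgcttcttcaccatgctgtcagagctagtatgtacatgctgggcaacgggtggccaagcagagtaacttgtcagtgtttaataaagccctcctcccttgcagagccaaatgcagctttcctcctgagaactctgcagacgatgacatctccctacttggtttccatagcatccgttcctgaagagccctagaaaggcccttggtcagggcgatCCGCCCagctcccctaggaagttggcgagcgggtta

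The Pou4f1 window of 300 bases, from 250 before the TSS to 50 after it, was 78.3% G and C with a CpG content 1.24 times that expected from its bases. Isl2 had 67.3% and 0.678, Pou4f2 69.7% and 0.563, Sncg 61.3% and 0.323, and the first Slc17a6 window 53.7% and 0.373. Pou4f1 and Isl2 thus met the criterion used for a CpG-rich promoter (at least 50% G and C, and at least 0.6 of the expected CpG), and Pou4f2 came just under it. Of 8285 CpG-rich coding genes, 67.6% were marked in all 6 lists and 10.4% in none, whereas of 8237 other genes 14.8% were marked in all 6 and 70.6% in none. Pou4f1 and Isl2 therefore fell in the smaller fraction of CpG-rich genes with no peak, and the other 3 with the majority of their class.

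GGGCGG was present in a window of all 5 genes, compared with 51.0% of the 16522 coding genes with a window. CAGCTG, the E-box form bound by several basic helix-loop-helix factors, was in that of Pou4f1 (17.7% of genes), and TAATTA, a core of many homeodomain sites, in the second Slc17a6 window (5.31%). TATAAA and TAATCC, the latter a core for the photoreceptor factor CRX, were in none of the 5, compared with 14.3% and 7.60% of genes. Both strands were searched, and these are letter matches only.

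The other 3 sequences are regions away from promoters. They are windows of 300 bases centred on the median summit, on the strand of the gene. In those of Nefh and Rbpms capitals mark CG, and in that of Pou4f2 they mark the longest word present at least 4 times.
Nefh, 17 kb downstream of the TSS, chr11:4930803-4931102, minus strand: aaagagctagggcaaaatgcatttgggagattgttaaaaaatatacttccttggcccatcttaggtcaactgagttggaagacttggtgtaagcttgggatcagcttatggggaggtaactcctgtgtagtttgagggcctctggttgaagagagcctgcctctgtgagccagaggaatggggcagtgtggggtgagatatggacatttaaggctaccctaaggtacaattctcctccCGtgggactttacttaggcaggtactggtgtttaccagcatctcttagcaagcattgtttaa
Rbpms, intron, chr8:33833345-33833644, minus strand: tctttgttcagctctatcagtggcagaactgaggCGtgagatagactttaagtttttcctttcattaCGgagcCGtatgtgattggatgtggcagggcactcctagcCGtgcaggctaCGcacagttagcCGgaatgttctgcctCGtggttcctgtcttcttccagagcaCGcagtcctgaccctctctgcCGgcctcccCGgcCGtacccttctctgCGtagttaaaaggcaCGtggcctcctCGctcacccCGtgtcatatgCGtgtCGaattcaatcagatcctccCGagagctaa
Pou4f2, 25 kb downstream of the TSS, chr8:78411599-78411898, minus strand: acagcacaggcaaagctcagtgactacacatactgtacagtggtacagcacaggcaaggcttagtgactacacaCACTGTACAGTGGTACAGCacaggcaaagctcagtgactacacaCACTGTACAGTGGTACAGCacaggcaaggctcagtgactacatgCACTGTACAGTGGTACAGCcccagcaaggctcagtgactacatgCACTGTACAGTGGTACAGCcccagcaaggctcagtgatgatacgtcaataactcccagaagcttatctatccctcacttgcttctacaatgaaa

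The Nefh downstream window held 1 CpG and the Rbpms intronic window 18, against a median of 23 in 1428 windows cut the same way from the regions of chromosomes 8 and 11 called in all 6 lists. The Pou4f2 window was a tandem repeat. A word of 19 bases occurred 4 times, and 78.9% of bases matched the base 44 positions on, whereas the median of the 1428 windows at their best shift was 35.2% and 1 of them reached as high a match. None of the 5 motifs searched in the promoters was found in these 3 windows, where from 1.82% (TAATTA) to 49.6% (GGGCGG) of the 1428 windows held one.

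Promoters of the 4 transcription factor genes carried no peak in any retina. Pou4f1 (chr14:104461676-104467999) and Isl2 (chr9:55538672-55546180) had none anywhere in their loci. The nearest peak to the Pou4f1 TSS lay 54.0 to 54.1 kb away in every list, and that to the Isl2 TSS 29.0 kb away in every list, each at the promoter of another coding gene. Pou4f2 (chr8:78433010-78436645) had none in its locus either. Just beyond it, the tandem repeat was called in control replicates 1 and 3 and 4xIOP replicates 1 and 2, with 14, 12, 12 and 13 fragments at the summit. It was therefore called in 2 retinas of each group, at fold percentiles of 33.0 to 65.2 within the lists. Pou4f3 (chr18:42394539-42397249) had a single peak, 19.1 kb upstream and in control replicate 3 only, with 12 fragments or 4.86 times the background, of which 69.1% of the bases were repeat-masked.

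**Figure D1:**
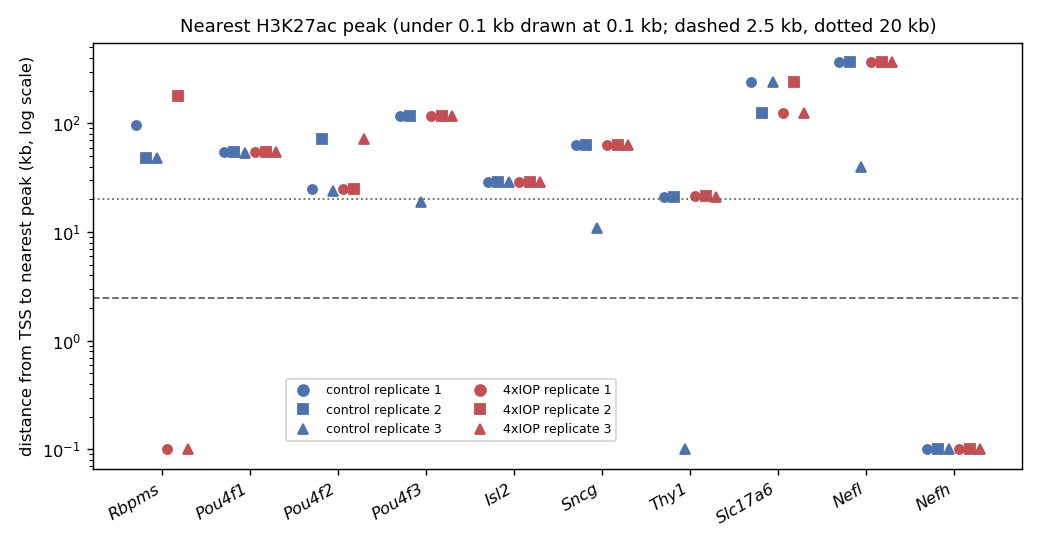
Distance from the nearest TSS of each gene to the nearest H3K27ac peak in each of the 6 lists, in kb on a log axis. Blue symbols are control and red 4xIOP retinas, replicates 1 to 3 are circles, squares and triangles, distances under 0.1 kb are drawn at 0.1 kb, and the lines stand at 2.5 kb and 20 kb; Nefh sits at the bottom in all 6 lists, while Nefl and Slc17a6 lie farthest from a peak in all lists except control replicate 3, where Nefl is at 39.98 kb.

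The gene of the vesicular glutamate transporter, Slc17a6 (chr7:51622006-51671119), had no peak in its locus in any list, and the nearest lay 124.6 kb (control replicate 2, 4xIOP replicates 1 and 3) or 239 kb away (the other 3), farther than in 76.7% to 87.9% of coding genes. Sncg (chr14:34370274-34374789) had 1 peak, 11.1 kb downstream of its TSS and in control replicate 3 only, with 12 fragments or 4.86 times the background. In the other 5 lists the nearest peak to Sncg lay 63.1 to 63.4 kb away, at a promoter of other genes.

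Thy1 (chr9:44043384-44048579) was marked in control replicate 3 alone. The peak (chr9:44043405-44043821) covered exon sequence, with its summit 121 bp past a TSS, 17 fragments, 6.89 times the background and a fold percentile of 42.6 within its list. It also fell in the promoter window of an upstream long noncoding gene, Gm39323, so it cannot be assigned to either from position alone. The list that gave this peak is the longest of the 6: a promoter marked in control replicate 3 and no other list was seen for 5.23% of coding genes. The other peak of the locus, with its summit 21.3 kb from the nearest Thy1 TSS, was at the promoter of Usp2, which encodes a ubiquitin protease. It was called in all 6 lists. The 3 control retinas had enrichments of 25.1, 14.2 and 30.4, and the 4xIOP retinas 22.4, 17.4 and 12.9, so the groups overlapped (means 23.2 ± 8.25 and 17.6 ± 4.76, SD, n = 3; exact permutation p = 0.4). By fold percentile they did not, at 27.3, 17.2 and 19.9 against 14.3, 7.09 and 8.35 (exact permutation p = 0.1, the smallest possible with 3 against 3), but 11.4% of the coding promoters marked in all 6 lists were separated in the same direction. Ranked only among the regions common to all lists the Usp2 scores overlapped, at -1.12, -1.49 and -1.75 in control and -1.45, -1.94 and -1.62 in 4xIOP retinas, and by name the lists overlapped in fold percentile as well.

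Rbpms (chr8:33782643-33929863) was marked in 2 retinas of the 4xIOP group and no control retina. In 4xIOP replicate 1 the promoter peak had 13 fragments at the summit (6.47 times the background, fold percentile 64.0), and in 4xIOP replicate 3 it had 18 (7.01 times, 73.9). Ranked by fragments instead of fold, they were among the weaker peaks of their lists, at percentiles 2.99 and 15.7. There was no peak in 4xIOP replicate 2 or in any of the 3 controls. Both peaks were short, 231 bp and 218 bp, where the shortest peaks of these lists were 230 bp and 190 bp, and their summits lay 133 bp and 210 bp past a TSS. The local background equalled the genome background in both lists, and the fewest fragments called at that background were 10 in each. Of the 21911 genes, 6 were marked in at least 2 4xIOP lists and no control list, or 0.0274%. Of the 2 lists, replicate 1 is one of those whose name carries the other group, so by name the 2 peaks come from 1 retina of each group.

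At a -log10 q of at least 5 the peak of 4xIOP replicate 1 (4.66) was lost and that of replicate 3 (7.08) kept, leaving Rbpms marked in 1 retina, and the Thy1 peak (4.48) was lost as well, while Nefh stayed marked in all 6.

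A second Rbpms region (chr8:33833287-33833962), in an intron 96.3 kb past the nearest TSS, was called in control replicates 1 and 3 and in 4xIOP replicate 1. Its enrichment was 5.02, 6.08 and 5.97, where the lowest levels called at the genome background of those lists were 4.11, 3.65 and 4.97. It was thus seen in both groups, and 4xIOP replicate 2 and control replicate 2 had no peak in the Rbpms locus at all.

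**Figure D2:**
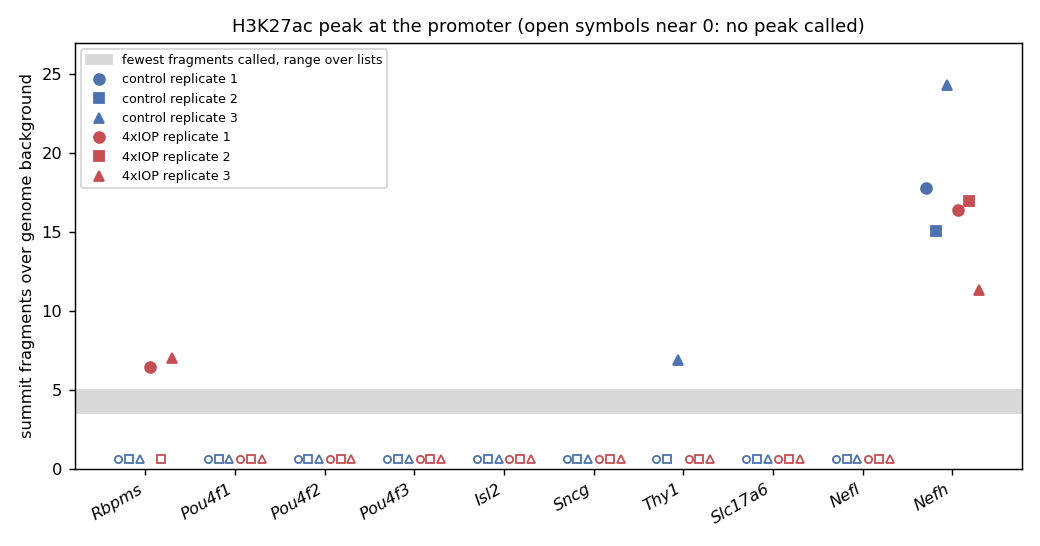
Enrichment of the promoter peak of each gene (fragments at the summit over the genome background, no unit) in the 6 lists. Filled symbols are called peaks, open symbols near 0 mark lists with no peak, blue is control and red 4xIOP, circles, squares and triangles are replicates 1 to 3, and the grey band is the lowest level called, 3.55 to 4.97; Nefh lies between 11.3 and 24.3 and the peaks of Rbpms and Thy1 between 6.47 and 7.01.

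The neurofilament genes stood at opposite ends. Nefl (chr14:68083863-68089095) had no peak in its locus in any list. Its nearest peak was 367 kb away in 5 lists and 39.98 kb away in control replicate 3, where it was the promoter of Nefm, the medium neurofilament subunit and a neighbour of Nefl (named after its value was seen). Nefh (chr11:4938754-4948064), in contrast, had 2 to 6 peaks in its locus in every list.

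The Nefh promoter peak spanned chr11:4947027-4948245 over all lists, across the TSS and into the first exon. In control replicates 1, 2 and 3 it had 39, 51 and 60 fragments at the summit, or 17.8, 15.1 and 24.3 times the background. In 4xIOP replicates 1, 2 and 3 it had 33, 36 and 29 fragments, or 16.4, 16.96 and 11.3 times. The groups overlapped in enrichment, which averaged 19.1 ± 4.74 in control and 14.9 ± 3.12 in 4xIOP retinas (SD, n = 3 each; exact two-sided permutation p = 0.4, where 0.1 is the smallest that 3 against 3 can give). Over its 6 lists Nefh had a median enrichment of 16.7, near the 15.03 that was the median of the coding genes marked in all 6 lists, which were 39.5% of coding genes.

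Measured by the rank of its fold within each list, where the fold is taken over the local background, the Nefh promoter stood at percentiles 54.6, 70.2 and 67.9 in control and 41.7, 52.7 and 47.7 in 4xIOP retinas. Here the groups did not overlap, with means of 64.3 ± 8.41 and 47.4 ± 5.53 (SD, n = 3) and a difference of -16.9 percentile points (exact two-sided permutation p = 0.1, the smallest possible). It held only for the labels: the lists named control stood at 41.7, 52.7 and 67.9 and those named 4xIOP at 47.7, 54.6 and 70.2, which overlap. A separation between the labelled groups was seen at many promoters. Of the 8657 coding genes marked in all 6 lists, 11.4% had a lower fold percentile in every 4xIOP list than in every control list, 0.439% had a higher one, and the median gene differed by -5.01 points. With the same number of top peaks taken from each list, the Nefh difference was -6.06 points (exact permutation p = 0.7). The lists also differed in the length of their shortest peak, which is taken here to reflect fragment length, an assumption that was not tested. The difference was -7.44 points where the shortest peak exceeded 200 bp, which held for replicates 1 and 2 of 4xIOP and for the first control, and -21.4 among the other 3 lists.

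The peak map of the Nefh locus held more than the promoter. An intergenic region 17.1 kb downstream of the TSS (chr11:4930280-4931880) was called in all 6 lists, at 21.4, 12.4 and 25.1 times the background in control and 26.4, 23.6 and 12.9 in 4xIOP retinas. Its means of 19.7 ± 6.53 and 20.9 ± 7.12 (SD, n = 3) overlapped (exact permutation p = 0.7). By fold percentile it stood at 11.8, 6.80 and 24.2 in control and at 40.9, 31.3 and 6.02 in 4xIOP retinas, again overlapping under the labels (exact permutation p = 0.4). The 3 highest of these values, and the 3 highest enrichments, were those of control replicate 3 and 4xIOP replicates 1 and 2, which are the 3 lists whose names carry the control group. Its range of 12.4 to 26.4 in enrichment lay close to that of the promoter, 11.3 to 24.3. By fold, which is taken over the local background, the region lay lower, at percentiles 6.02 to 40.9 against 41.7 to 70.2 at the promoter. A region in an intron of the neighbouring gene Thoc5, 24.6 kb downstream, was called in 5 lists, all but 4xIOP replicate 3, at 15.4 to 29.2 times the background. Upstream, a region at 11.4 kb was called in control replicate 2 only, and 1 at 19.4 kb in control replicate 3 and 4xIOP replicate 2. The list with the fewest peaks, 4xIOP replicate 3, thus kept only the promoter and the 17 kb region.

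**Figure D3:**
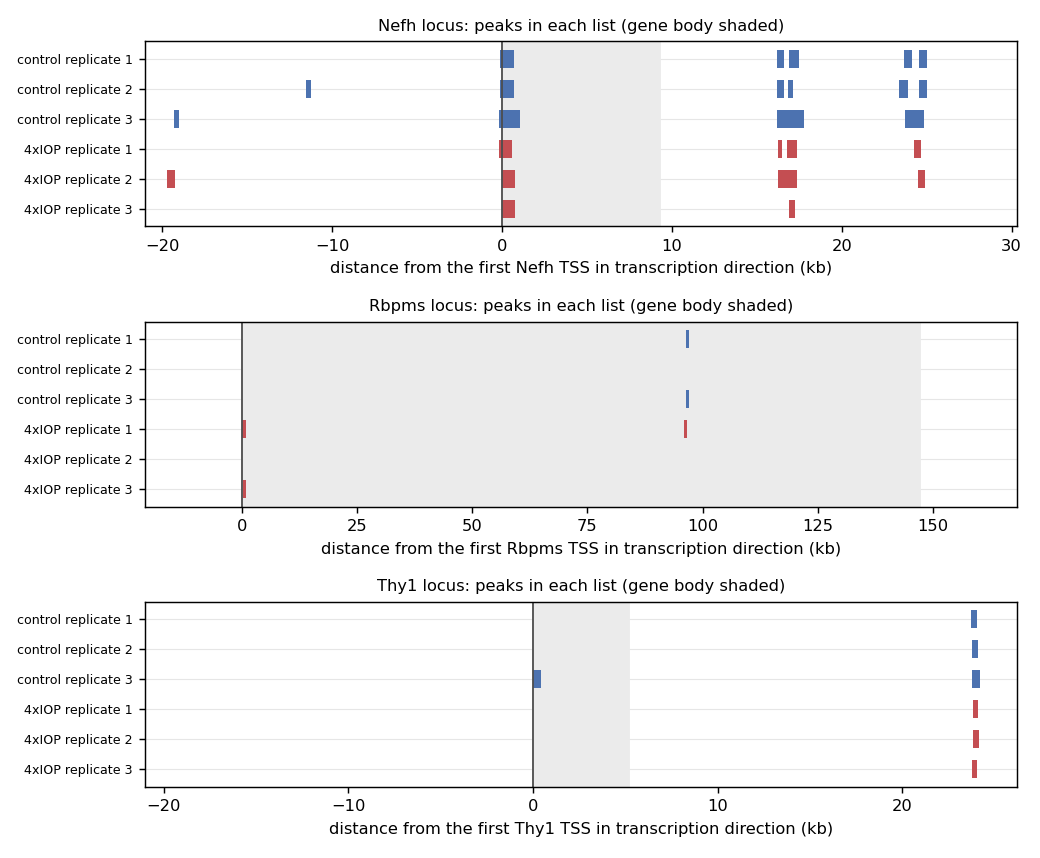
Peaks along the Nefh, Rbpms and Thy1 loci, 1 row per list, as distance in kb from the first TSS in the direction of transcription. Blue bars are peaks of control and red bars of 4xIOP retinas, very short peaks are widened to be visible, and the gene body is shaded; the Nefh promoter and the region near 17 kb have a bar in all 6 rows, the Rbpms promoter in 2 and the Thy1 promoter in 1.

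The covered length followed the same pattern. Peaks covered 2.77, 2.79 and 4.26 kb of the Nefh locus in control and 2.10, 2.88 and 1.13 kb in 4xIOP retinas. Summed over the 10 loci, 3.34, 3.10 and 5.90 kb were covered in control and 3.29, 3.17 and 1.58 kb in 4xIOP retinas, or 4.11 ± 1.55 and 2.68 ± 0.955 kb (SD, n = 3). The difference of -1.44 kb was mostly that of control replicate 3 and 4xIOP replicate 3, the longest and the shortest list: it was -0.544 kb without the former and -0.885 kb without the latter. The lists as wholes covered 13.3 ± 5.99 Mb in control and 9.06 ± 2.08 Mb in 4xIOP retinas (SD, n = 3), a ratio of 0.682 where that of the loci was 0.651. As a share of the covered length of its list, the loci made up 0.0316 ± 0.00281% in control and 0.0289 ± 0.00458% in 4xIOP retinas, so the difference was near that of the whole lists. In kb, the difference was -0.114 within the lists of longer fragments and -2.92 within those of shorter fragments. With the same number of top peaks taken from each list it was -0.909 kb.

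Of the regions in these loci, 3 were called in all 6 lists and could be tested across the genome: the Nefh promoter, the region 17 kb downstream of it, and the Usp2 promoter in the Thy1 locus. With limma on the normal scores of the fold ranks of 10529 such regions and Benjamini-Hochberg adjustment, 0 regions were higher in 4xIOP (0%) and 0 lower (0%), 334 having an unadjusted p under 0.05. These 334 were fewer than a share of 0.05 of the regions. For the Nefh promoter the score difference was -0.16 ± 0.31 (SE; limma adjusted p = 0.9999), for the 17 kb region 0.61 ± 0.34 (adjusted p = 0.9999) and for the Usp2 promoter -0.22 ± 0.31 (adjusted p = 0.9999). The first turned to 0.0337 without control replicate 2, and the last moved to -0.0547 without control replicate 1. Each of the 3 differences lay within 2 SE of 0, and changes of this size could not be told from the spread between retinas.

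**Figure D4:**
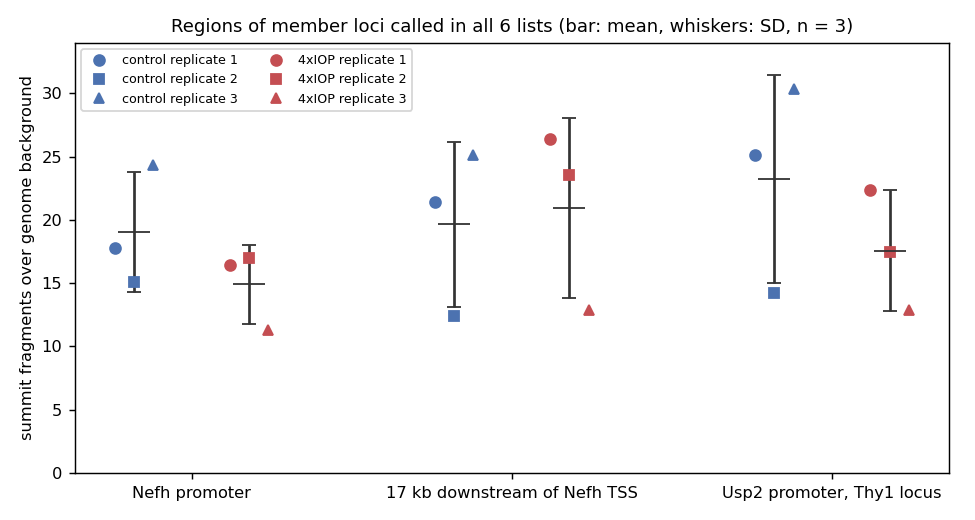
Enrichment (fragments at the summit over the genome background, no unit) in the 3 regions of these loci called in all 6 lists. Points are retinas, blue for control and red for 4xIOP with circles, squares and triangles for replicates 1 to 3, long bars are means and whiskers SD (n = 3); the points of the groups overlap in each region, and 4xIOP replicate 3 is the lowest 4xIOP point in all 3.

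Counted over the genes, 1, 1 and 2 of the 10 were marked in control and 2, 1 and 2 in 4xIOP retinas, means of 1.33 ± 0.577 and 1.67 ± 0.577 (SD, n = 3). The 2 groups thus differed by less than the spread within each, and the difference was 0.5 within either fragment-length class. In all, 3 of 10 genes were marked in at least 1 list, where 57.6% of coding genes were.

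A second list held 40 genes of RGC development, subtypes and axons. Of these, 5 (12.5%) were marked in all 6 lists, 16 in some and 19 (47.5%) in none. Among all coding genes 39.5% were marked in all 6 and 42.4% in none, and of the first 10 genes 10% and 70%. The unmarked share of the second list rested on control replicate 3: without that retina 28 of its 40 genes had no peak, compared with 8 of the first 10 and 10435 of the 21911 coding genes. Among the 5 were Jam2, an adhesion molecule of a direction-selective RGC type, with a mean fold percentile of 73.7; Atoh7, the factor that starts the RGC lineage, with 64.8; Map1b, a microtubule-associated protein, with 55.1; and Kcng4, a potassium channel subunit of alpha RGCs, with 45.4. Among the 19 with no peak were the transcription factor genes Sox11, Irx2, Irx3, Onecut2, Ebf3, Tbr1, Eomes, Foxp2 and Tbx20, the melanopsin gene Opn4, the acetylcholine receptor genes Chrna6 and Chrnb3, and Stmn2, Gap43, Spp1, Nrn1, Penk and Prph.

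Control replicate 3 decided much of that list. It marked 52.5% of the 40 genes, where the other 5 lists marked 17.5% to 20%, and 9 of the 40 (22.5%) were marked in it and nowhere else, compared with 5.23% of coding genes. The group means were 30.0 ± 19.5% in control and 19.2 ± 1.44% in 4xIOP retinas (SD, n = 3), a difference of -10.8 percentage points that became 0.417 without control replicate 3. Over all coding genes the difference was -4.67 points, and -1.49 without that retina. The same retina stood apart for bipolar cell genes, of which it marked 65% against 15% to 20% in the other lists.

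**Figure D5:**
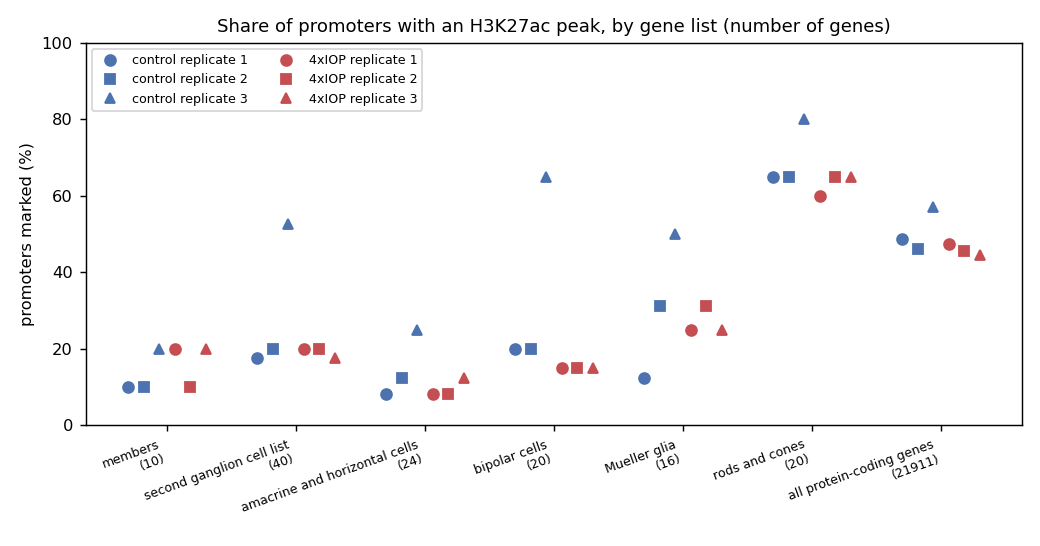
Percent of promoters with an H3K27ac peak in each of the 6 lists, for the 10 RGC genes, the second RGC list, 4 lists of other retinal cells and all coding genes, with the number of genes in brackets. Blue is control, red 4xIOP, and circles, squares and triangles are replicates 1 to 3; control replicate 3 is the highest point in every list but the first, where it ties, and the rod and cone list is marked most often.

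Lists of other retinal cells were counted in the same way. They were not fully separate: Isl1 was in the second RGC list and the bipolar list, and Ebf3 in the second RGC list and the amacrine and horizontal list. Marked in all 6 lists were 1 of 10 RGC genes, 5 of 40 of the second list, 2 of 24 amacrine and horizontal cell genes, 3 of 20 bipolar cell genes, 2 of 16 Müller glia genes, 0 of 5 astrocyte genes and 12 of 20 rod and cone genes. With no peak in any list were 7 of 10, 19 of 40, 17 of 24, 6 of 20, 8 of 16, 5 of 5 and 4 of 20, in the same order. In a split made after the values were seen, all 12 rod and cone genes marked in all 6 lists were among the 13 rod or shared photoreceptor genes, while of the 7 cone genes 4 were marked in no list and 3 in control replicate 3 only. The 12 genes also had a median enrichment of 35.9, compared with 16.7 for Nefh and 14.7 for the 5 genes of the second RGC list. No test was made between these lists, which were chosen with earlier results of these data known.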

How the data were processed

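H3K27ac ChIP-seq was made by the authors from single retinas with antibody ab4729, and 1 peak list per retina was deposited. The submitters' processing notes name mm10, STAR 2.7.8a, MACS2, HOMER, edgeR and bedtools 2.29.2 without roles; for these ChIP-seq lists the sources used here give no peak-calling settings and no control library, and the lowest -log10 q of the lists was 1.31 to 1.40. Each deposited list holds the fold at the summit (a ratio over the local background) and its -log10 p and -log10 q; a deposited integer score derived from these was not used. The authors' read totals per sample are not given, so no counting interval was made, and precision is set by 3 retinas a group.

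From fold and -log10 p, whole fragments and local background were recovered for 100% of peaks (tolerance 0.001, checked on simulated data); the genome background of a list is the smallest local background among its peaks. Peaks were placed on GENCODE M21 by an overlap of 1 bp. Regions called in all 6 lists were compared with limma 3.58.1 in R 4.3.3 (threshold 0.05), and single values with an exact permutation test. Lists were also split by their shortest peak (above or below 200 bp), which was assumed to reflect fragment length. The labels do not say which retinas share an animal, so p-values measure the spread between these retinas only. The genes, gene lists and tests were chosen with earlier results of these data known. All 10 genes were named, with coding genes whose marked TSS lies in a locus and, of the second list, those marked in all 6 or in no list, of which some are not reported here.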

Additional observations from a re-analysis of the deposited data

How the results depend on the processing

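The alternatives were peaks with a -log10 q of at least 5, an equal number of top peaks, other windows and measures, each fragment-length class, and each list left out. limma called 0 regions in all 11 alternatives, with 251 to 701 at an unadjusted p under 0.05. That was less than a share of 0.05 of the regions in each but the run without 4xIOP replicate 3, with 701 of 12228. The covered length of the loci stayed lower in 4xIOP in all 14, at -0.114 kb and -2.92 kb within the longer and shorter fragment classes, -4.32 kb between the 2 lists whose name matches the label, and -4.91 kb with 50 kb windows; the cause was not tested. Leaving out a list gave -1.94 to -0.544 kb. The number of genes marked differed by 0.167 to 0.667 with a list left out, 0.667 with equal numbers of peaks and 0 between the 2 lists with matching names. The Nefh fold percentile stayed lower in all 13, each by the labels, by -21.7 to -6.06 points. Most of these could not have turned the sign. The labelled groups did not overlap, so a list left out, a fragment-length class or the 2 lists with matching names had to give a lower value. The 1 kb promoter window gave the main value of -16.9 again. The score of the Nefh promoter ran from -0.289 to 0.0337 with a list left out and turned positive (0.0337) without control replicate 2; those of the 17 kb region and the Usp2 promoter kept their sign in all 10 that gave a value, since neither was in all 6 lists at a -log10 q of at least 5. With 1 list left out the former ran from 0.389, when 4xIOP replicate 1 was dropped, to 0.896. The latter reached -0.365 when control replicate 3 was dropped, -0.0876 when 4xIOP replicate 2 was, and -0.0547 when control replicate 1 was. With the replicate number as a block (replicate block), the 3 score differences were again -0.16, 0.61 and -0.22 with 0 calls. Each block held 1 control and 1 4xIOP list, so the block could not change these differences. It is 1 of the alternatives counted above as keeping their sign. Lists with the same number did not deviate together (correlations -0.02, -0.06 and -0.15), so the numbers were not treated as pairs. The second RGC list differed by 0.417 points without control replicate 3, an alternative chosen after seeing the data. A promoter with under 9 to 12 fragments could not be called, which limits every absence given above.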

Other observations

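Genes of glia were read in the same way, with no test against those of RGCs. Of 16 Müller glia genes, 2 were marked in all 6 lists, 6 in some and 8 in none, and the share marked ran from 12.5% in control replicate 1 to 50% in control replicate 3. None of 5 genes of the astrocytes of the nerve fibre layer was marked in any list.

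Single lists set most of the one-sided promoters. Across the genome, 358 coding genes (1.63%) were marked in at least 2 control lists and no 4xIOP list, 355 of them in control replicate 3, and none of the 10 RGC genes was among them. Of bipolar cell genes, 9 of 20 (45%) were marked in control replicate 3 only, compared with 5.23% of all coding genes.

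The fold of the deposited lists and the fragments behind it ranked promoters differently. The rod and cone genes marked in all 6 lists had a median fold percentile of 14.2 but a median fragment percentile of 98.6. The fragment percentile of the Nefh promoter differed by -12.9 points between the groups, a difference that 28.8% of the genes marked in all 6 lists equalled or exceeded downwards. For its fold percentile difference of -16.9 points that share was 11.6%.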
